A study of Mus musculus with 6 samples.

Results

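The 9 genes described here encode enzymes that make, convert and break down ceramide and its products: Sptlc1, Sptlc2, Cers2, Sgms1, Ugcg, Smpd1, Asah1, Sphk1 and Sgpl1. They are 9 of the 18193 mouse genes that the arrays read with at least 1 probe set annotated to a single symbol, and all 9 were found, on 23 probe sets. A probe set is a group of short array probes that together give 1 value for a transcript. The main reading of a gene is its brightest probe set, judged by the mean of all 6 arrays, and the others are given beside it. The list was put together after results of these data were known, the higher Asah1 signal among them, so that difference is a description and supports nothing further.

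Ceramide is the hub of sphingolipid metabolism. Serine palmitoyltransferase and the ceramide synthases make it in the endoplasmic reticulum, Golgi enzymes turn it into sphingomyelin or glucosylceramide, and lysosomal enzymes return those lipids to ceramide and then to sphingosine. Sphingosine can be phosphorylated to the signalling lipid sphingosine 1-phosphate, which a lyase removes for good. Epithelial cells rely on these lipids for their apical membrane, and ceramide and sphingosine 1-phosphate are known for opposite links to growth arrest and growth. The arrays measured RNA, and no lipid was measured.

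The cells were mPAC L20, an established line of mouse pancreatic duct origin, and RNA of 6 cultures went onto Affymetrix arrays. Neurog3, which starts endocrine differentiation in the pancreas, was expressed in every culture from an adenovirus with the CMV promoter. A hairpin adenovirus had gone on first: in 3 cultures its hairpin was scrambled (shControl), and in 3 it targeted the transcription factor Atoh8, also called Math6 (shAtoh8). The multiplicity of infection was 40 for each virus on 250000 cells per well, with 44 to 46 h of further culture. Per the labels, the 3 replicates of each group are independent biological replicates. There was no array without Neurog3 and none without virus, and a single hairpin represents the knockdown.

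The hairpin's target was not clearly lower on these arrays. Atoh8 had log2 signals of 8.75, 8.29 and 7.52 with the scrambled hairpin (replicates 1, 2 and 3) against 7.83, 7.90 and 7.37 with its own, and the groups overlapped (limma adjusted p = 0.573). Each pair was lower, by -0.92, -0.39 and -0.15, and blocking by replicate gave a limma adjusted p of 0.157. The probe sets of Neurog3 read -0.57 ± 0.48 (log2 difference, SE) and 0.18 ± 0.17, with opposite signs, and the first of them passed limma only with the block (adjusted p = 0.706 and, with the block, 0.0330). Their mean log2 signals over all arrays were 6.34 and 6.33. The leukocyte marker Csf1r also read 6.34, and 45.6% of genes were dimmer than it. Expression from the Neurog3 virus is thus not apparent as a high signal here, and it was not tested. The first Neurog3 probe set fell from replicate 1 to replicate 3 in both groups (7.45, 6.64 and 5.79 in shControl, 6.78, 6.06 and 5.33 in shAtoh8). Array medians lay between 5.49 and 5.56. The replicate 2 array of shAtoh8 had dimmer hybridisation spikes (9.89, against 10.24 to 10.48 on the others) and a larger 3' over 5' difference for actin (0.354, where the rest had 0.107 to 0.202). The 7 duct markers with a value, among them Krt7, Krt8, Krt18 and Krt19, read from 7.68 to 13.88, and their mean was 11.55 to 11.64 on the shControl arrays and 11.35 to 11.46 on the shAtoh8 arrays. Of these 7, Epcam was lower and passed with the block alone (-0.73; limma adjusted p = 0.145 without it and 0.0463 with it); its part in the results was not tested. Of the 19 markers of fibroblasts, acinar cells, endothelium and leukocytes 0 passed limma, with or without the replicate block. At an unadjusted limma p under 0.05 the count was 1, where 17.5% of all genes were under it. Epcam and Krt7 (-0.25) of the duct list were also under it. Acinar markers had array means of 5.18 to 5.21 in shControl and 5.28 to 5.42 in shAtoh8. For fibroblasts, endothelium and leukocytes the array means of the groups overlapped. The part of these shifts in the results was not tested.

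Asah1 had the largest difference of the 9. It was 2.70-fold higher in shAtoh8 and alone passed in the fit to the whole table, which is given as a description, since that rise was known when the list was made. Ugcg and Sgms1, which draw on ceramide to build glucosylceramide and sphingomyelin, read lower on each shAtoh8 array than on any shControl array, but neither passed. The synthesis enzymes Sptlc1, Sptlc2 and Cers2, the acid sphingomyelinase Smpd1 and the lyase Sgpl1 differed by 0.12 or less on the log2 scale. Across all genes 1.15% passed (limma, Benjamini-Hochberg adjusted p under 0.05 over all probe sets), 0.517% higher and 0.638% lower, against 1 higher and 0 lower of these 9. With the replicate number as a block the counts of the 9 were the same, where 4.67% of all genes passed. At an unadjusted p under 0.05 there were 3 of the 9 (Asah1, Sgms1 and Ugcg), and 17.5% of all genes. The median log2 difference was 0.04 for the 9 and 0.01 for all genes.

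**Figure D1:**
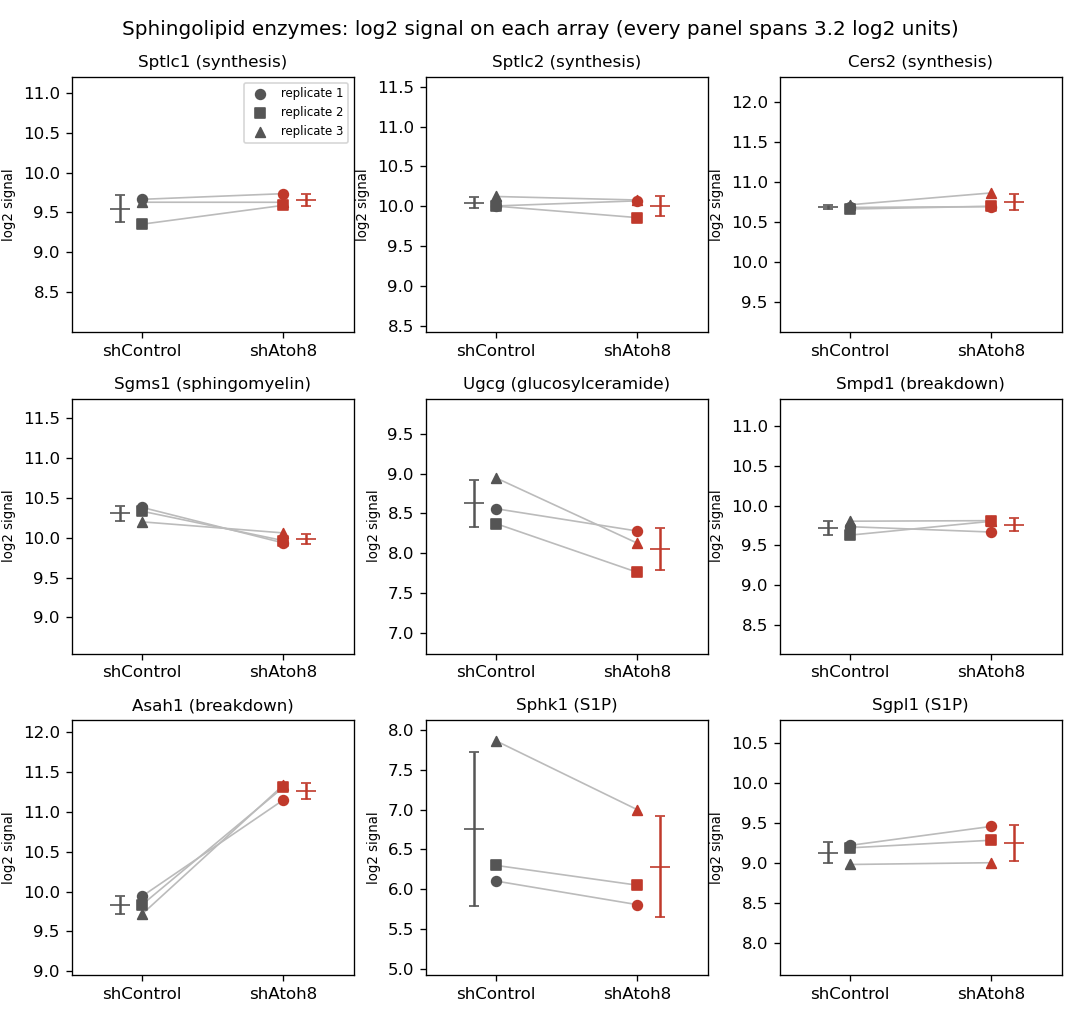
Log2 signal of the 9 enzymes on each of the 6 arrays, on the brightest probe set of each gene. Grey is shControl, red is shAtoh8, the marker shape gives the replicate number, lines join arrays of the same number, and bars beside the points are the mean and SD of the 3 arrays of a group. Asah1 moves from at most 9.94 to at least 11.15, Ugcg and Sgms1 separate by less, and Sphk1 differs more between replicate numbers than between hairpins.

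The sequences that precede Sgms1 and Ugcg, lower in shAtoh8 without overlap, and that of Cers2, which holds a CACGTG element, are shown for the E-boxes they hold or lack. Atoh8 and Neurog3 belong to the basic helix-loop-helix class, whose members bind E-boxes of the form CANNTG. The lines give the 250 bases before an annotated start in RefSeq (GRCm38.p6), 5′ to 3′ on the gene's strand, with each CANNTG in capitals. For Sgms1 the start farthest upstream is shown, chr19:32388513-32388762 on the minus strand. Ugcg is chr4:59189300-59189549 and Cers2 chr3:95314940-95315189, both on the plus strand, and for Cers2 the upstream one of its starts is shown.
Sgms1: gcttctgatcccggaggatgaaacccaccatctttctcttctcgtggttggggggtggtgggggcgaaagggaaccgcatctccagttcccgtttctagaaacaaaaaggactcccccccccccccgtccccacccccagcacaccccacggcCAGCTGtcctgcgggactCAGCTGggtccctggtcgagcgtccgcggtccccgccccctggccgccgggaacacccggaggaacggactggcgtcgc
Ugcg: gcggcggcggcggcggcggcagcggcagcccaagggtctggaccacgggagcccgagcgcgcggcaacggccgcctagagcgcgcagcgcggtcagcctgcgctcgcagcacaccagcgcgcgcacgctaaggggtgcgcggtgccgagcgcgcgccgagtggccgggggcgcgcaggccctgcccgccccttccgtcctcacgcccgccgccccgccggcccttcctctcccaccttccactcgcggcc
Cers2: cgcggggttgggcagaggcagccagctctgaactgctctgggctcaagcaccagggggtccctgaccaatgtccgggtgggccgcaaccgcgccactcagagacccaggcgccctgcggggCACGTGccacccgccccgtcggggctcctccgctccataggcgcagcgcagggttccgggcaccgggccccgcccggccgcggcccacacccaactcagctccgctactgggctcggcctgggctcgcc
The table holds windows of 300 bases, from 250 before to 50 after a start, for 8 of the 9 genes (16 windows), and Asah1 is not among them. Motifs were searched on both strands: CANNTG, the CACGTG that is a special case of it, and TCACGTG, which overlaps CACGTG and is the core of the element bound by the lysosomal regulators TFEB and TFE3. CANNTG was in 8 of the 16 member windows (50.0%), against 72.3% of all 32851 windows. CACGTG was in 3 (18.8%, against 7.15%), from 2 of the 8 genes, Cers2 and Sphk1. The Sphk1 windows overlap and hold the same site, which is counted in each, so the share of windows overstates the number of sites. TCACGTG was in 0 of the member windows (against 3.77%). The Sgms1 stretch shown holds 2 CANNTG elements, and those of its other 3 starts hold 1, 0 and 0, so the count depends on the start. The Cers2 stretch shown holds 1, while that of its other start holds 3, none of the CACGTG form. For Ugcg there is 1 start, and its stretch holds 0. Of the 5 Sphk1 stretches, 2 that overlap hold 2 each, of which 1 has the CACGTG form, and the other 3 hold 0. A match describes letters, and says nothing about binding.

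Among the synthesis enzymes, 0 of 3 passed. Sptlc1, the subunit shared by all forms of serine palmitoyltransferase, read 9.66, 9.35 and 9.63 (log2 signal) in replicates 1, 2 and 3 of shControl and 9.74, 9.59 and 9.63 in those of shAtoh8, and later values follow the same order. The groups overlapped, and the difference was 0.10 ± 0.11 (log2, SE; 95% interval -0.15 to 0.35; limma adjusted p = 0.780). Its other 3 probe sets differed by -0.03 to 0.06. Sptlc2, the catalytic partner, read 10.00, 10.00 and 10.12 in shControl and 10.07, 9.86 and 10.08 in shAtoh8. Here too the groups overlapped, with a difference of -0.04 ± 0.09 (95% interval -0.26 to 0.18; limma adjusted p = 0.920). Its other 2 probe sets read higher in shAtoh8 in all 3 pairs, by 0.27 ± 0.20 and 0.12 ± 0.10 on average, and did not pass, so the sign for Sptlc2 depends on the probe set. Cers2, the ceramide synthase for very long acyl chains, has 1 probe set here and read 10.68, 10.66 and 10.71 in shControl and 10.69, 10.69 and 10.86 in shAtoh8. Every pair was higher in shAtoh8, but by 0.01 to 0.15 only, and the interval of the difference (0.06 ± 0.08) ran from -0.13 to 0.26 (limma adjusted p = 0.832). For these 3 genes the intervals leave out a change as large as that of Asah1, which few genes had, but not smaller changes. On the second Sptlc2 probe set the interval reached 0.74. The intervals are those of the fit for a single probe set, unadjusted for the number tested.

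Both members that build on ceramide had lower means in shAtoh8, and neither passed. Sgms1, the Golgi sphingomyelin synthase, read 10.38, 10.33 and 10.20 in shControl and 9.93, 9.96 and 10.06 in shAtoh8. All 3 shAtoh8 arrays lay below all shControl arrays, and the difference was -0.32 ± 0.09 (log2, SE; 1.25-fold lower; limma adjusted p = 0.154, and 0.142 with the replicate number as a block). The next 2 probe sets by brightness also read lower without overlap, by -0.27 ± 0.08 and -0.56 ± 0.14, while the dimmest of the 4 read 0.08 ± 0.18. On the probe set at -0.56 the shAtoh8 replicate 2 array, the one with dim spikes, was the lowest (8.19, against 8.61 and 8.71 in replicates 1 and 3). Leaving out 1 array at a time gave -0.66 to -0.40 there, and the part of that array was not tested. Within replicate numbers the Sgms1 differences were -0.45, -0.37 and -0.14, so replicate 3 gave the smallest.

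Ugcg, glucosylceramide synthase and the entry point to most glycosphingolipids, read 8.56, 8.37 and 8.94 in shControl and 8.28, 7.76 and 8.12 in shAtoh8. The groups did not overlap, although the highest shAtoh8 array (replicate 1) came close to the lowest shControl array (replicate 2). The difference was -0.57 ± 0.18 (1.48-fold lower; limma adjusted p = 0.216), with pair differences of -0.28, -0.61 and -0.82. With arrays blocked by replicate, limma's adjusted p was 0.0631 on this probe set and 0.0385 on the next, which read 8.49, 8.34 and 8.46 in shControl and 8.08, 7.79 and 7.80 in shAtoh8 (-0.54 ± 0.11; limma adjusted p = 0.0739 without the block). Of the 23 member probe sets that one and the Asah1 probe set passed with the block, against 3.42% of all probe sets, and the Asah1 probe set alone passed without it, against 0.802%. The third Ugcg probe set read -0.55 ± 0.20 and the dimmest -0.24 ± 0.12, so all 4 had the same sign. On all 3 brighter probe sets the replicate 2 array of shAtoh8, the one with dim spikes, was the lowest of the 6. Its part in the result was not tested. Without it the difference on the main probe set was -0.42. With the block, and without the replicate 2 arrays of both groups, it was -0.55.

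**Figure D2:**
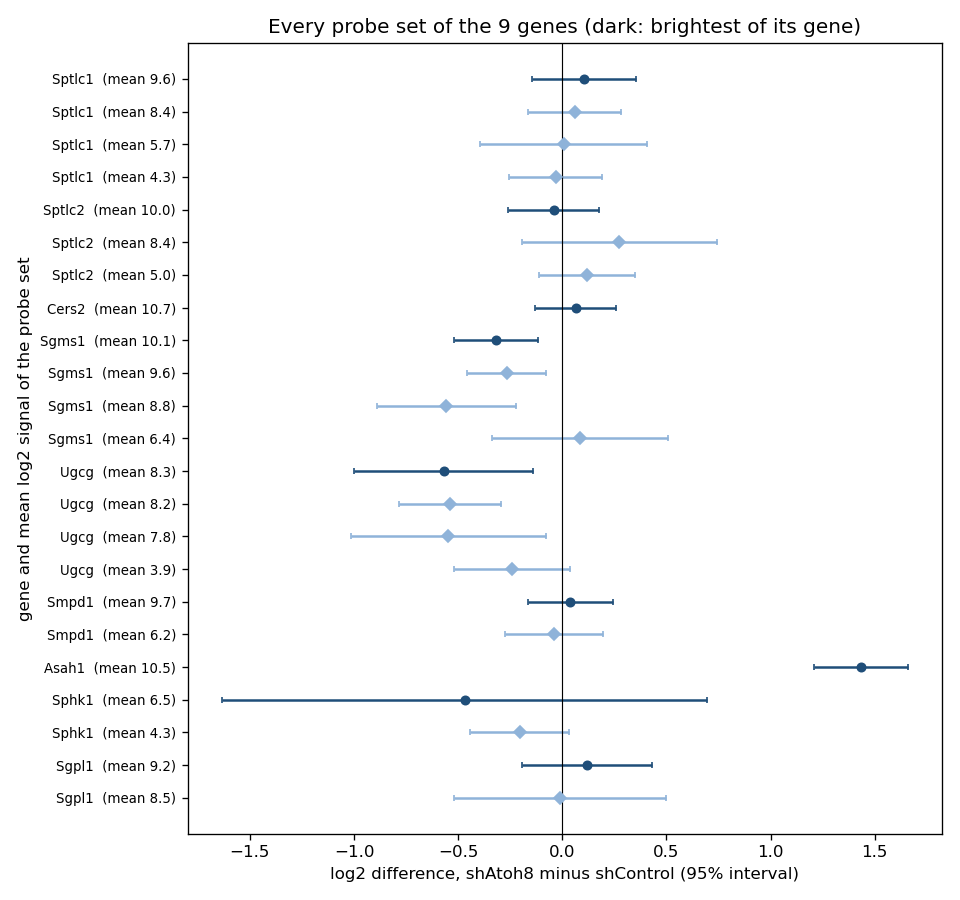
Log2 difference between shAtoh8 and shControl for all 23 probe sets of the 9 genes, grouped by gene and ordered by brightness, with the 95% interval of each limma estimate (n = 3 arrays a group). Dark points are the brightest probe set of a gene and light points its others; Asah1 lies at 1.43, the other 22 probe sets lie between -0.57 and 0.27, and the brighter probe sets of Sgms1 and Ugcg lie below 0.

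Of the lysosomal enzymes, Asah1 passed and Smpd1 did not; the difference between them was not tested. Smpd1, the acid sphingomyelinase that turns sphingomyelin into ceramide, read 9.73, 9.63 and 9.80 in shControl and 9.67, 9.80 and 9.81 in shAtoh8. The groups overlapped, with a difference of 0.04 ± 0.09 (95% interval -0.17 to 0.24; limma adjusted p = 0.921) and -0.04 ± 0.10 on its other probe set. Asah1, the acid ceramidase that splits ceramide into sphingosine and a fatty acid and is missing in Farber disease, read 9.94, 9.84 and 9.72 in shControl and 11.15, 11.31 and 11.34 in shAtoh8. Every shAtoh8 array exceeded every shControl array by at least 1.21, more than the SD within groups (0.11 and 0.10, n = 3 each). Within replicate numbers it was higher by 1.21, 1.47 and 1.62, whereas none of the other 8 members, on its main probe set, was higher in shAtoh8 by more than 0.24 in any pair. The difference was 1.43 ± 0.10 (log2, SE; 95% interval 1.21 to 1.66), and limma gave an adjusted p of 0.0104 (0.0160 with the block). Of the 18193 genes, 10 had a larger positive difference. Asah1 has 1 probe set here, so no second one bears on it, and in a bulk sample a shift in the make-up of the cells and more RNA per cell cannot be told apart. The call was lost without shControl replicate 1 (limma adjusted p = 0.0566), shControl replicate 2 (0.0784) or shAtoh8 replicate 1 (0.0520). The difference lay between 1.38 and 1.49 over the 6 single arrays left out. In those 3 fits the calls over all genes were 3 higher and 0 lower, 0 and 0, and 0 and 1. With all arrays they were 94 and 116.

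Past sphingosine, no member passed. Sphk1, which makes sphingosine 1-phosphate, read 6.10, 6.30 and 7.86 in shControl and 5.81, 6.05 and 6.998 in shAtoh8. Replicate 3 was the highest in both groups and the groups overlapped widely, so the difference of -0.47 ± 0.50 had an interval from -1.63 to 0.70 (limma adjusted p = 0.784). Within replicate numbers every pair was lower in shAtoh8, by -0.30, -0.25 and -0.86, and limma's adjusted p with the block was 0.138. In the fit without the block the value rested on shControl replicate 3. It was 0.08 without that array, and between -0.83 and -0.23 without any other single array. With the block, leaving out both arrays of replicate 1, 2 or 3 gave -0.56, -0.58 and -0.27 for Sphk1. Its dimmer probe set read 4.27, 4.29 and 4.56 in shControl and 4.22, 4.15 and 4.13 in shAtoh8, lower without overlap but by only 0.21 on average (-0.21 ± 0.10; limma adjusted p = 0.449). Sgpl1, the lyase that ends the pathway, read 9.22, 9.19 and 8.98 in shControl and 9.46, 9.28 and 9.002 in shAtoh8. The groups overlapped although each pair was higher, by 0.24, 0.10 and 0.02 (0.12 ± 0.13; 95% interval -0.19 to 0.43; limma adjusted p = 0.800), and the other probe set read -0.01 ± 0.22.

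Over the 9 genes, groups did not overlap for 3 (Asah1 higher, Ugcg and Sgms1 lower), where this held for 24.0% of all genes, 12.6% higher and 11.4% lower. The pairs had the same sign in all 3 replicate numbers for 6, 3 in each direction, where this held for 45.5% of all genes. For a single gene an exact two-sided permutation test of 3 arrays against 3 cannot go below p = 0.1, the value it gave for Asah1, Ugcg and Sgms1.

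Beyond the 9, 59 of 64 other listed sphingolipid genes had a value, and among them Sgms2 and Acer3 fell. With these 2 lower and 0 higher, the share called was read against 0.638% lower and 0.517% higher over all genes (limma adjusted p under 0.05). The list was chosen with earlier results of these data known, so its counts are a description and support nothing further. Without adjustment, 13 of the 59 had p under 0.05, as did 17.5% of all genes. Sgms2, the second sphingomyelin synthase, which acts at the plasma membrane, read 9.91, 10.14 and 10.16 in shControl and 9.04, 9.30 and 8.91 in shAtoh8. The groups were far apart, with a difference of -0.99 ± 0.13 (SE; 1.98-fold lower; limma adjusted p = 0.0313), and its other probe set read -0.93 ± 0.18 (0.0743). Acer3, an alkaline ceramidase outside the lysosome, read 10.32, 10.27 and 10.43 in shControl and 9.79, 9.71 and 9.89 in shAtoh8. Its pair differences were nearly equal (-0.53, -0.56 and -0.54), and the difference of -0.54 ± 0.09 passed narrowly (limma adjusted p = 0.0499). The next probe set of Acer3 also passed (-0.61 ± 0.09; 0.0439), the third read -0.58 ± 0.11 and the dimmest 0.03 ± 0.10. Smpd2, a neutral sphingomyelinase, read 10.06, 9.89 and 10.00 in shControl and 10.47, 10.38 and 10.48 in shAtoh8. It was higher in each pair by 0.42 to 0.49 and passed with the replicate block (0.46 ± 0.08; limma adjusted p = 0.0609 without the block and 0.0409 with it), which made the counts 1 higher and 2 lower, against 1.92% and 2.75% of all genes. Leaving out 1 array at a time ended the call of Acer3 in all 6 fits and that of Sgms2 in 5, all but the one without shAtoh8 replicate 2. The differences stayed between -0.59 and -0.50 and between -1.09 and -0.90. Over all genes these 6 fits called from 0 to 41 higher and from 0 to 76 lower, against 94 and 116 with all arrays.

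**Figure D3:**
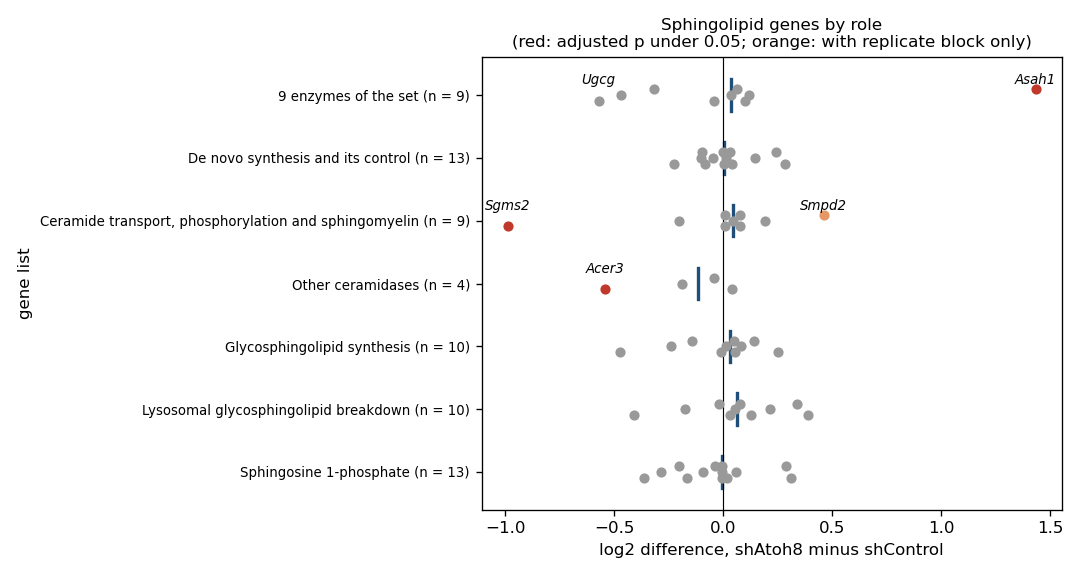
Log2 difference between shAtoh8 and shControl for the 9 enzymes and for 59 other sphingolipid genes by role, 1 point a gene on its brightest probe set, with the list median as a blue bar. Red points passed limma (adjusted p under 0.05) and the orange point passed with the replicate block alone; most genes lie near 0, and Asah1 (1.43) and Sgms2 (-0.99) lie farthest out.

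By role, the lists centred near 0. Among 13 genes of synthesis and its control, such as Kdsr (0.29 ± 0.11) and Cers6 (0.24 ± 0.08), 0 passed and the median was 0.01. Of 9 genes for ceramide transport, phosphorylation and sphingomyelin, 1 passed lower (Sgms2; median 0.05), and of 4 other ceramidases, 1 passed lower (Acer3; median -0.12). None of 10 genes of glycosphingolipid synthesis passed (median 0.03), among them Plekha8, which carries glucosylceramide between Golgi membranes (-0.47 ± 0.16; limma adjusted p = 0.245). Nor did any of 10 genes listed under glycosphingolipid breakdown (median 0.07). They ranged from -0.41 ± 0.11 for Naaa to 0.39 ± 0.14 for the alpha-galactosidase Gla. Naaa is a lysosomal amidase related to Asah1 and not itself a glycosphingolipid enzyme, and the next lowest was Arsa (-0.17 ± 0.09). Of the 13 genes of sphingosine 1-phosphate synthesis, export, breakdown and receptors, 0 passed (median -0.01). In this last list Sphk2, the other sphingosine kinase, read 0.31 ± 0.08 (limma adjusted p = 0.143), opposite in sign to Sphk1, and the exporter Spns2 read -0.36 ± 0.12 (0.239). Counts at an unadjusted p under 0.05 were 2 for synthesis, 2 for transport and sphingomyelin, 1 for the ceramidases, 1 and 4 for glycosphingolipid synthesis and breakdown (Naaa among the 4), and 3 for sphingosine 1-phosphate. These were read against the 17.5% of all genes at that threshold, and with lists this short nothing is drawn from them. Kdsr, Cers6, Plekha8, Naaa, Arsa, Gla, Sphk2 and Spns2 were chosen after their values were seen.

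Genes with clone-like names (Riken, Gm, LOC and similar) were set aside. Among the rest, those whose levels followed Asah1 most closely over the 6 arrays were Mpg, Ppm1a, Pgpep1, Tnrc6a and Bmpr1b. Their Pearson r was 0.999, 0.999, 0.998, 0.998 and 0.997. All points share the 2 groups, and r takes no account of size: Mpg, a DNA glycosylase, differed by 0.31 and Tnrc6a, a partner of Argonaute proteins, by 0.62. Bmpr1b was dim, at 4.22 to 4.35 on all arrays, and differed by 0.12. Of these genes Tnrc6a alone passed (limma adjusted p = 0.0285). Among the members, r with Asah1 was -0.875 for Sgms1, -0.824 for Ugcg and between -0.365 and 0.507 for the other 6.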

How the data were processed

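Total RNA of 6 cultures was labelled with biotin and hybridised, 1 array each. The authors deposited 1 log2 signal for every probe set and array. Per the submitters' processing notes these come from RMA (affy); their versions: not given in the sources used here. RMA gives all arrays the same distribution, so a change shared by most genes would be hidden.

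The 64 control probe sets were left out and 45037 tested. Symbols came from the platform annotation. shAtoh8 was compared with shControl in limma 3.58.1 (R 4.3.3; lmFit, eBayes; group as the only term; two-sided; Benjamini-Hochberg over 45037 probe sets; threshold 0.05). The code was checked on simulated data with independent errors. Those data hold no pairing of arrays, so the check does not cover it. Errors are moderated SEs or SDs. The number of arrays limits the precision.

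Deviations from group means correlated at 0.407, 0.187 and 0.433 between arrays of the same replicate number, and at -0.351 to 0.0292 otherwise. Arrays of the same number thus resembled each other more than other arrays did, least so for replicate 2. Deviations within a group cancel out, so these correlations are not independent, and the labels do not state a pairing. The main fit has no block, and the replicate block is given where it matters.

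The members and lists were chosen with earlier results of these data known. Named by rule were the 9 members, Atoh8, Neurog3 and other sphingolipid genes that passed with or without the block (up to 6 with the block alone). So were the 5 genes most like Asah1 among those without clone-like names. The report marks those named after their values were seen. The CANNTG search was added after the data were seen. Scaling, filtering, block, variance model, array weights, probe set choice, threshold and single arrays were varied.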

Additional observations from a re-analysis of the deposited data

How the results depend on the processing

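The count of called members (1 higher, 0 lower) was the same with median centring, cyclic loess, brighter probe sets alone, the replicate block, trend and robust variance, array weights, 1 probe set a gene, gene means, no probe sets marked for cross-hybridisation and a threshold of 0.1. It ranged from 0 to 1 higher, with 0 lower, when 1 array was left out, and likewise when both arrays of a replicate number were left out of the fit with the replicate block. Of the other sphingolipid genes, 1 passed higher in place of 0 with the replicate block, with array weights, with 1 probe set a gene, with gene means and at a threshold of 0.1 (Smpd2 each time), and 1 passed lower in place of 2 with median centring, where Acer3 had an adjusted p of 0.0525. With arrays left out these counts stayed at 0 higher and ranged from 0 to 1 lower without 1 array, and from 0 to 3 lower with the replicate block and 1 replicate number left out. Over all genes, 94 higher and 116 lower became 349 and 500 with the replicate block, 146 and 178 among brighter probe sets, 153 and 186 with array weights, 247 and 310 with 1 probe set a gene, 193 and 266 with gene means, and 313 and 378 at a threshold of 0.1. They ranged from 0 to 41 higher and from 0 to 76 lower without 1 array, and from 0 to 300 and 0 to 666 with the replicate block and 1 replicate number left out.

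Signs turned only for members near 0 or, for Sphk1, with a wide spread. Smpd1 read -0.0017 as a gene mean, -0.0088 without shControl replicate 2 (up to 0.0843 without shAtoh8 replicate 1) and -0.0301 with the replicate block and without replicate 2. Sptlc2 read 0.12 as a gene mean, 0.0307 without shAtoh8 replicate 2 (down to -0.08 without shAtoh8 replicate 3) and 0.0102 with the replicate block and without replicate 2. Sphk1 read 0.0841 without shControl replicate 3 and -0.8258 without shAtoh8 replicate 3. With the replicate block and both arrays of replicate 1, 2 or 3 left out, Sphk1 read -0.556, -0.58 and -0.2722. Over all 18 alternatives Asah1 stayed between 1.34 and 1.55, Ugcg between -0.72 and -0.41 and Sgms1 between -0.41 and -0.25. Signal over background was not analysed here, so how far the dim probe sets of Sphk1, Sptlc1 and Ugcg lie above it is unknown. With 3 arrays a group, the members that missed the threshold are not shown to be unaffected.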
